A study of Rattus norvegicus with 320 samples.

Results

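miR-221 and miR-222 are a pair of neighbouring microRNAs (miRNAs), and their level was followed here in 11 organs of Fischer 344 rats of both sexes. The members are the rows of the count table named for either miRNA with any arm suffix, which gave 4 of the 616 rows: rno-miR-221-3p, rno-miR-222-3p, rno-miR-221-5p and rno-miR-222-5p (the prefix, for rat, is left off below). The rats were 2, 6, 21 or 104 weeks old, with 4 samples for each organ, sex and age, and the labels name no allele or agent that differed between groups. The organs were adrenal gland, brain, heart, kidney, liver, lung, skeletal muscle, spleen and thymus in both sexes, testis in males and uterus in females. RNA was taken from ground organ tissue, and the organs of a sex and age were taken from the same 4 rats, although the labels do not say which samples share a rat. Every value is a mean over all cells of the tissue taken, and fewer cells of a type cannot be told apart from less miRNA per cell. Of the 320 libraries, 1 male brain library of week 6 and 1 female spleen library of week 104 were left out, and 318 were used.

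A miRNA is cut from a hairpin precursor, and usually one arm of the hairpin is kept as the guide strand in the Argonaute protein while the other, the passenger strand, is mostly lost. Bases 2 to 8 of the guide, the seed, pair with target messenger RNAs. miR-221 and miR-222 are transcribed together from the X chromosome. They are best known for lowering the cell cycle inhibitor p27 (Cdkn1b) and the receptor Kit, and they have been studied in blood vessel cells, blood progenitors, neurons and tumours.

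The mature sequences show why the pair is described together. They are given 5′ to 3′ with the seed in capitals, as deposited and as in the RefSeq entries.
miR-221-3p: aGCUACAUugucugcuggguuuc
miR-222-3p: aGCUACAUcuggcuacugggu
miR-221-5p: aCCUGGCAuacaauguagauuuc
miR-222-5p: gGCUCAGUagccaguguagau
Both 3p strands have the same seed, GCUACAU, and it was found in no other row of the table. They are identical over the first 8 bases from the 5′ end, and 18 bases match when the 23 and 21 bases are aligned. The 5p strands have different seeds, each found in 1 row.

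Both precursors lie on the plus strand of chromosome X in GRCr8, with Mir222 at chrX:6022621-6022723 and Mir221 at chrX:6023182-6023290. The hairpins are 458 bases apart, and the annotation places both within the bounds of the long noncoding RNA genes LOC120099382 on the same strand and LOC120099384 on the opposite strand. In the hairpins below the capitals mark the 5p strand first and the 3p strand second.
Mir222: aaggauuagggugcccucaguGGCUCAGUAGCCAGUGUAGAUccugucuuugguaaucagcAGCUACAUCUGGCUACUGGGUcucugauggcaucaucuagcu
Mir221: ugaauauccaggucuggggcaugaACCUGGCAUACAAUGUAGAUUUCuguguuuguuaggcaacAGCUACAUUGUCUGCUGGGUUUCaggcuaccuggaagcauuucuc

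The libraries held 315550 to 10571766 counts, and liver libraries were the shallowest by median. Counts were divided by the library total and scaled to a common total to give CPM, the usual parts-per-total unit of small RNA sequencing. miR-221-3p was counted 7 to 8397 times per library with a median of 686, and its mean of 351.3 CPM put it at rank 111 of 616. miR-222-3p was counted 10 to 6275 times with a median of 429 and held rank 128 with 260.2 CPM. miR-221-5p had a median of 80 counts and rank 244. miR-222-5p was at 3 counts or fewer in 240 of 318 libraries and at 0 in 93, so it is given as a description only. Over 27 pairs of an organ and a marker miRNA, the marker was highest in its own organ in 18 and among the highest 3 organs in 23, and it was at 0 in no library of its own organ. The exceptions were miR-204-5p in kidney, miR-126a-3p in uterus, miR-181a-5p in spleen and miR-223-3p in thymus.

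Brain held the highest level of both 3p strands and skeletal muscle the lowest. For miR-221-3p, the mean over all ages was 1166 CPM ± 238.9 (SD, n = 31) in brain and 42.8 CPM ± 9.81 (SD, n = 32) in skeletal muscle, a 27.2-fold difference. For miR-222-3p, the mean was 1201 CPM ± 175.0 (SD, n = 31) in brain and 19.3 CPM ± 7.17 (SD, n = 32) in skeletal muscle, which is 62.3-fold. Brain lay 1.80-fold above the next organ for miR-221-3p and 2.75-fold for miR-222-3p, and testis was next for both. These levels are shares of all miRNA counts. With TMM, a scaling explained with the age changes below, the mean of miR-221-3p was 711.9 CPM ± 587.9 (SD, n = 16) in testis and 562.2 CPM ± 129.8 (SD, n = 31) in brain, so that testis came first, and liver at 67.7 CPM fell just below skeletal muscle at 68.7 CPM. For miR-222-3p the ends stayed the same with TMM, at 579.1 CPM in brain and 30.3 CPM in skeletal muscle. On the share scale, the passenger strand miR-221-5p had the same ends of the order, with 224.9 CPM in brain and 5.92 CPM in skeletal muscle.

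The individual libraries show how far brain stood apart. At week 6, brain libraries held 1328 to 1658 CPM of miR-221-3p with a median of 1370, and the highest of the 72 other libraries was a lung library at 687.8 CPM. At week 21, brain held 938 to 1231 CPM against at most 843 CPM elsewhere. At weeks 2 and 104 the groups overlapped, since 3 other libraries at each age reached the lowest brain library, with a testis library the highest of them at 979.6 and 1137 CPM. miR-222-3p in brain did not overlap with other organs at weeks 6, 21 and 104, where the lowest brain libraries held 965, 1048 and 960.5 CPM and the highest others 506.2, 408.6 and 494.4 CPM. At week 2, 1 testis library at 919.2 CPM lay above the lowest brain library at 835.6 CPM. Brain libraries that are all above the other organs were not rare in this table: it held for 19.6% of the 616 miRNAs at week 2, 24.7% at week 6, 23.5% at week 21 and 24.2% at week 104.

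**Figure D1:**
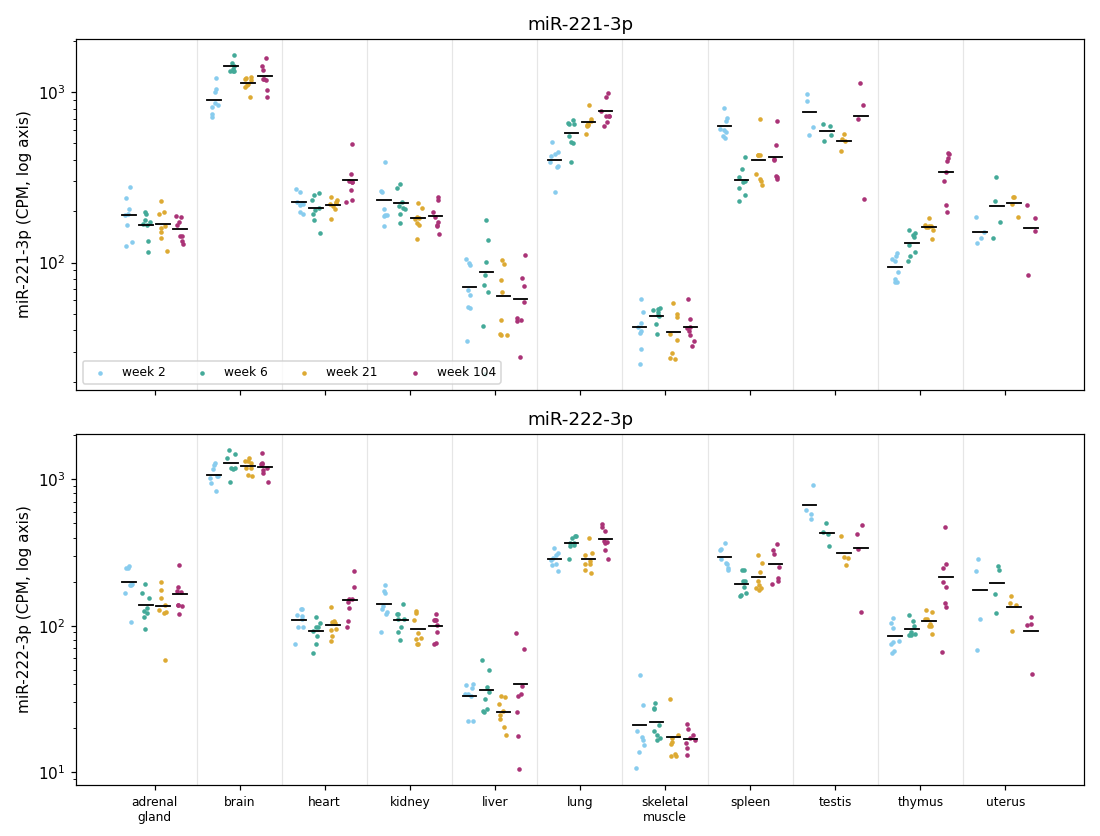
Level of miR-221-3p (top) and miR-222-3p (bottom) in CPM on a log axis, in each of 11 organs at weeks 2, 6, 21 and 104. Each point is 1 library and each black bar the mean of its organ and age. Brain lies at the top of both panels and skeletal muscle at the bottom, and thymus and lung show a rise of miR-221-3p with age.

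Between the ends, the order of organs by mean miR-221-3p level was testis, lung, spleen, heart, kidney, uterus, thymus, adrenal gland and liver. The order for miR-222-3p was testis, lung, spleen, adrenal gland, uterus, thymus, heart, kidney and liver. Organs were compared in pairs at each age with edgeR's quasi-likelihood test, and a contrast was called at a Benjamini-Hochberg adjusted p under 0.05 and over 1.5-fold. miR-221-3p was called in 163 of 220 contrasts, miR-222-3p in 166 and miR-221-5p in 142, beside 59.0% of all tests over all miRNAs. Of the 40 contrasts of brain with another organ, miR-222-3p was higher in brain in 38 and lower in 0, beside 42.5% of all tests that were higher and 32.3% that were lower in brain. miR-221-3p was higher in brain in 32 and lower in 1, where testis was above it at week 104 (log2 -0.72). Of the 40 contrasts of skeletal muscle, each 3p strand was lower in muscle in 38, beside 33.7% of all tests.

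Many neighbours in the order did not differ at every age. Spleen and adrenal gland, and thymus and heart, were called at 0 of 4 ages for miR-222-3p. Spleen and heart were called at 1 of 4 ages for miR-221-3p, with log2 fold changes between -0.20 and 1.36. The step down to the last organs was clear at every age: kidney was above liver for miR-222-3p at 4 of 4 ages by 1.71 to 2.47 log2 units, and adrenal gland was above liver for miR-221-3p at 4 of 4 ages by 0.97 to 1.71 log2 units. Liver and skeletal muscle were called at 2 of 4 ages for each strand.

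The age comparison asked whether the pair changed between the suckling, young, adult and old rat. Thymus, the organ where T cells mature and which shrinks with age, showed the largest rise of miR-221-3p under both scalings described below. With TMM the rise in testis was close to that in thymus. In thymus, miR-221-3p was 76.5 to 114.4 CPM with a median of 95.1 at week 2, 101.6 to 155.9 with a median of 134.4 at week 6, 137.5 to 183.4 with a median of 162.6 at week 21, and 198.0 to 437.8 with a median of 366.3 at week 104. The libraries of week 104 lay above all libraries of weeks 2 and 21, and 11.9% of all miRNAs did so against week 2 and 7.14% against week 21. In lung, miR-221-3p was 260.3 to 506.9 CPM at week 2 and 635.5 to 984.2 CPM at week 104, with medians of 404.5 and 727.5 CPM. These groups did not overlap either, which held in the same direction for 6.01% of all miRNAs.

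Fold changes with age depended on the scaling. TMM, the trimmed mean scaling of edgeR, sets the bulk of miRNAs level, while library size scaling keeps shares of all miRNA reads. In testis the 10 most abundant miRNAs took a median of 64.0% of counts at week 2 and 84.5% at week 104, and in skeletal muscle 72.5% and 83.1%. From week 2 to week 104 the median log2 change of all miRNAs in testis was -0.55 with TMM and -2.06 with library size, in uterus -0.17 and -1.13, and in skeletal muscle -0.18 and -0.93. Each change below is therefore given on both scales.

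For week 104 against week 2, miR-221-3p was called higher with TMM in 7 of 11 organs and lower in 0, beside 18.8% of all tests higher and 25.9% lower. With library size it was higher in 2 and lower in 1, beside 10.4% and 36.3%. All miRNAs were called higher with TMM in 21.8% of tests in brain, 24.2% in heart, 19.8% in lung, 25.6% in skeletal muscle, 18.0% in testis, 22.9% in thymus and 16.1% in uterus. In thymus the log2 fold change was 1.51 ± 0.118 (SE, adjusted p = 3.1e-13, edgeR) with TMM and 1.84 with library size. In lung it was 1.19 ± 0.111 (SE, adjusted p = 9.0e-11, edgeR) with TMM and 0.96 with library size. Both organs were called on both scales. In brain it was 0.86 with TMM and 0.45 with library size, and in heart 0.99 and 0.41, and here the adjusted p was under 0.05 on both scales but the library size change stayed under 1.5-fold. The remaining calls with TMM were not made with library size: skeletal muscle at 0.95 with TMM and 0.01 with library size, uterus at 0.98 and 0.07, and testis at 1.45 and -0.07, where the direction turned. Spleen was called lower with library size alone, at -0.59 (adjusted p = 0.0093, edgeR), and was at -0.35 with TMM. Its week 2 samples have the lowest RNA integrity of the series, as given below. The other organs were called on neither scale, with adrenal gland at 0.14 with TMM and -0.28 with library size, liver at 0.054 and -0.18, and kidney at -0.059 and -0.31, so that the direction turned in adrenal gland and liver.

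miR-222-3p was called higher with TMM in 5 of 11 organs and lower in 0. With library size it was higher in 1, thymus, and lower in 2, testis and uterus. In thymus its log2 fold change was 0.97 ± 0.186 (SE, adjusted p = 3.3e-05, edgeR) with TMM and 1.34 with library size. In thymus at week 2 the libraries held 65.5 to 112.2 CPM with a median of 77.9, and at week 104 they held 66.5 to 474.5 CPM with a median of 191.0, so these groups overlapped. In lung the change was 0.68 with TMM and 0.46 with library size, in heart 1.02 and 0.45, and in brain 0.61 and 0.18. The direction turned in skeletal muscle (0.68 with TMM and -0.27 with library size), testis (0.55 and -0.96), uterus (0.04 and -0.94), spleen (0.15 and -0.13) and adrenal gland (0.13 and -0.28). In kidney it was -0.29 and -0.51, under 1.5-fold on both scales. miR-221-5p was called higher in 4 organs with TMM, but in 0 with sequencing lane in the fit.

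**Figure D2:**
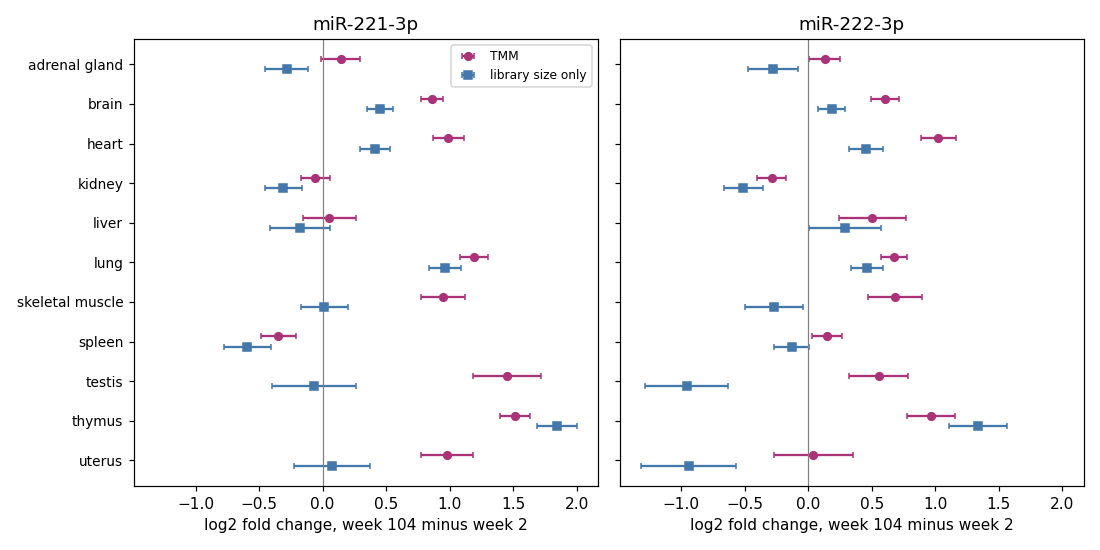
Log2 fold change from week 2 to week 104 in each organ for miR-221-3p (left) and miR-222-3p (right), by edgeR with TMM (circles) and with library size only (squares), with standard errors as bars. Thymus lies to the right of 0 on both scales for both miRNAs, while testis, uterus and skeletal muscle move from the right towards or past 0 with library size.

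Other cell types' miRNAs moved with the rise in thymus. Here and for lung, list miRNAs said to rise or fall were called with TMM. The summed level of 2 endothelial miRNAs, miR-126a-3p and miR-126a-5p, was 2908 to 7154 CPM at week 2 and 9242 to 29035 CPM at week 104, and 2 of 2 rose. Of 4 mesenchymal miRNAs (the miR-199a and miR-214 arms), 3 rose and 0 fell, and their sum went from a median of 787.1 to 3208 CPM. All 4 red blood cell miRNAs rose, with sums of 809.2 to 1891 CPM and 6286 to 93919 CPM. Of 4 smooth muscle miRNAs, 3 rose and 0 fell. Of 6 white blood cell miRNAs, 2 rose and 2 fell, and of 6 miRNAs of the miR-17 to miR-92a cluster, known from dividing cells, 0 rose and 6 fell. None of these lists had a member at 0 in all thymus libraries of either age. Over all miRNAs in thymus, 22.9% were called higher and 30.7% lower. With library size, 3 of 6 white blood cell miRNAs were called higher, and the counts of the other lists were the same. Over the 11 organs, 10.4% of all tests were higher and 36.3% lower with library size. The part of these cell types in the rise of miR-221-3p was not tested.

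In lung, 1 of 2 endothelial, 5 of 6 white blood cell, 0 of 4 smooth muscle and 0 of 4 mesenchymal miRNAs rose. The white blood cell sum was 3895 to 5625 CPM at week 2 and 6501 to 23413 CPM at week 104. The mesenchymal sum had a median of 7666 CPM at week 2 and 2831 CPM at week 104, and 3 of its 4 members fell. Of 4 smooth muscle miRNAs 1 fell. Of 4 red blood cell miRNAs 0 rose and 2 fell, and of 6 miR-17 to miR-92a cluster miRNAs 0 rose and 2 fell. In lung 19.8% of all miRNAs were called higher, and over the 11 organs 25.9% of all tests were lower. The share lower in lung alone is not given. With library size, 4 of 6 white blood cell miRNAs were called higher. Called lower were 4 of 4 red blood cell and 3 of 6 cluster miRNAs, beside 36.3% of all tests over the 11 organs. Whether changes in these cell types played a part in the lung was not tested.

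Spleen went the other way early in life. In spleen, the blood filter that also makes blood cells in the young rat, miR-221-3p was 541.0 to 807.5 CPM with a median of 604.7 at week 2 and 229.4 to 415.2 CPM with a median of 299.8 at week 6, without overlap, which held for 14.6% of all miRNAs in that direction. The log2 fold change was -0.65 ± 0.135 (SE, adjusted p = 0.00035, edgeR) with TMM and -1.07 with library size, and 18.7% of all miRNAs were called lower. miR-222-3p was 241.4 to 369.0 CPM and 159.2 to 239.2 CPM, and its change was -0.19 with TMM, which was not called, and -0.59 with library size, which was. The 8 spleen samples of week 2 have the lowest RNA integrity of the series in the study's sample table, and the part of RNA integrity was not tested. Red blood cell miRNAs summed to a median of 186463 CPM at week 2 and 128409 CPM at week 6 in spleen. Sums of the other lists are not given for these ages, and the part of any cell type was not tested.

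In brain, miR-221-3p rose between weeks 2 and 6. miR-221-3p was 710.7 to 1215 CPM at week 2 with a median of 849.8 and 1328 to 1658 CPM at week 6, without overlap, beside 3.41% of all miRNAs in that direction. The log2 fold change was 0.92 ± 0.0892 (SE, adjusted p = 2.0e-09, edgeR) with TMM and 0.64 with library size, and both were called, as were 14.6% of all miRNAs in that direction with TMM. For miR-222-3p and miR-221-5p the brain libraries of these ages overlapped. Between neighbouring ages in all organs, miR-221-3p was called in 6 of 33 contrasts and miR-222-3p in 2, beside 19.1% of all tests.

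In testis the 4 libraries of week 2 held 564.0, 621.7, 886.3 and 979.6 CPM of miR-221-3p, and those of week 104 held 841.8, 696.7, 236.7 and 1137 CPM. For miR-222-3p they held 575.9, 538.7, 616.8 and 919.2 CPM at week 2 and 487.4, 332.6, 124.9 and 421.9 CPM at week 104. The groups overlapped for miR-221-3p and did not for miR-222-3p, which lay lower at week 104 together with 63.6% of all miRNAs. Smooth muscle miRNAs summed to 118031 to 124660 CPM at week 2 and 17727 to 58525 CPM at week 104 in testis. With TMM, 2 of 2 endothelial, 6 of 6 white blood cell and 3 of 4 red blood cell miRNAs were called higher. Called lower were 3 of 4 smooth muscle, 4 of 4 mesenchymal and 3 of 6 miR-17 to miR-92a cluster miRNAs. In testis 18.0% of all miRNAs were called higher, and over the 11 organs 25.9% of all tests were lower. The share lower in testis alone is not given. With library size, 2 of 6 white blood cell miRNAs and 0 of the other lists were called higher. The part of these cell types was not tested.

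Whether an organ's change from week 2 to week 104 differed from the mean change of the other 10 was tested in 1 fit, chosen after the data had been seen. With TMM, 29.5% of all tests were called. miR-221-3p was called in 6 organs and miR-222-3p in 2. The calls that also held with library size were thymus and spleen for miR-221-3p, and uterus for miR-222-3p. Thymus rose by 0.84 log2 units more than the mean of the others with TMM and by 1.82 with library size. The median difference of all miRNAs in thymus was 0.10 with TMM and 0.96 with library size. For spleen the difference of miR-221-3p was -1.34 with TMM and -0.90 with library size. It rests on the week 2 spleen samples with the lowest RNA integrity, whose part was not tested. Uterus had a difference of -0.69 with TMM and -0.996 with library size for miR-222-3p.

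The ratio of miR-222-3p to miR-221-3p within a library needs no scaling between libraries. It is given as log2 of the ratio of counts, with 0.5 added to each. The miRNAs were close to equal in brain, at 0.06 ± 0.272 (SD, n = 31), which is 1.04-fold, and in adrenal gland at -0.13 ± 0.379 (SD, n = 32). miR-222-3p was less abundant than miR-221-3p in the other organs by mean, down to -1.18 ± 0.363 (SD, n = 32) or 0.442-fold in skeletal muscle, -1.10 in heart and -1.03 in liver. An exact two-sided permutation test of each pair of organs at each age gave an adjusted p under 0.05 in 107 of 220 pairs. Brain was higher in 34 of its 40 pairs and lower in 0, adrenal gland higher in 24 and lower in 1, heart lower in 21 and skeletal muscle lower in 23. The efficiency of ligation and counting differs between sequences, so the ratio compares libraries and is not a ratio of molecules.

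The ratio also moved with age. In thymus the mean was -0.16 at week 2, -0.44 at week 6, -0.59 at week 21 and -0.82 at week 104, and the change from week 2 to week 104 was -0.65 (exact permutation test, adjusted p = 0.030, n = 8 and 8). In lung it fell by 0.51 on the log2 scale (exact permutation test, adjusted p = 0.029, n = 8 and 8), from a mean of -0.46 to -0.98. In spleen it rose from -1.12 at week 2 to -0.64 at week 104, a difference of 0.48 (exact permutation test, adjusted p = 0.037, n = 8 and 7). The spleen difference was already there at week 6, at 0.47 (exact permutation test, adjusted p = 0.021, n = 8 and 8). Both spleen comparisons rest on the 8 week 2 samples with the lowest RNA integrity, whose part was not tested. In each of these organs both ages overlapped.

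Testis had the largest change in mean of the 11 organs, from -0.20 at week 2 through -0.47 and -0.74 to -1.05 at week 104. Its 4 libraries of week 2 lay between -0.52 and 0.03 and those of week 104 between -1.43 and -0.79, without overlap. With 4 against 4 libraries the smallest exact permutation p is 0.029, which this comparison reached, and its adjusted p was 0.079. Between weeks 2 and 6 the ratio fell by 0.33 in adrenal gland, by 0.41 in brain and by 0.34 in kidney (exact permutation tests, each with an adjusted p of 0.021).

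Sequencing lane moved with the ratio. Within groups, lane took 23.0% of its variance, with lane 3 highest and lane 8 lowest, 0.50 log2 units apart. With lane effects removed, an alternative chosen after the data had been seen, the change from week 2 to week 104 was -0.75 in thymus, -0.52 in lung and 0.44 in spleen, all still past the threshold, and brain passed as well at -0.33. From week 2 to week 6, adrenal gland and brain no longer passed, at -0.17 and -0.21 (exact permutation tests, adjusted p = 0.17 and 0.064). Kidney still passed at -0.40, and thymus passed as well at -0.25 (exact permutation tests, adjusted p = 0.023 each). Spleen stayed past the threshold at 0.59, and its ages no longer overlapped. Without replicate 1, 3 or 4 of every group, 0 of 11 organs passed for week 104, and without replicate 2 only thymus did. These tests held at most 6 against 6 libraries, and testis and uterus, with 3 against 3, could not have passed.

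**Figure D3:**
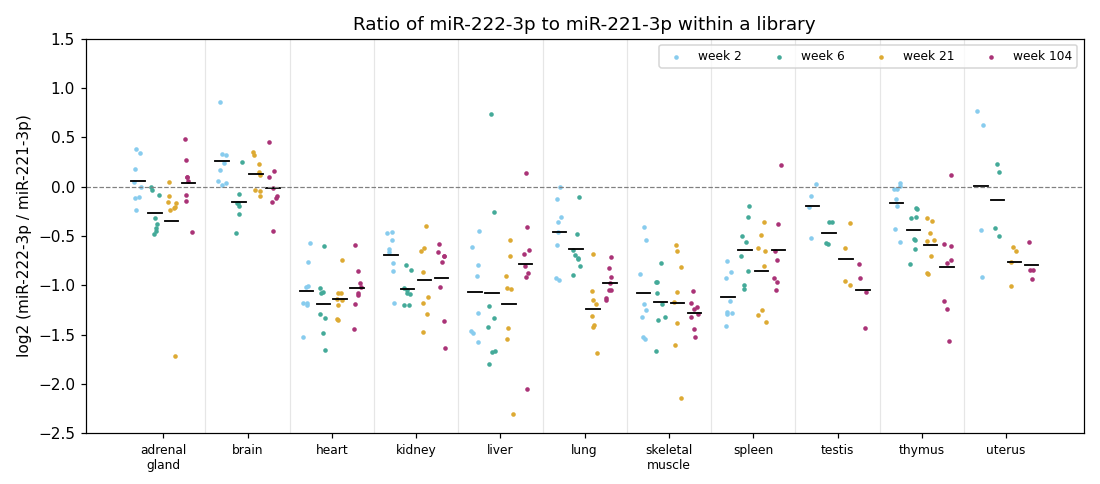
Log2 ratio of miR-222-3p to miR-221-3p counts within each library by organ and age. Points are libraries, black bars are means and the dashed line marks equal counts. Brain and adrenal gland lie near the line, heart, liver and skeletal muscle lie lowest, and thymus, lung and testis fall from week 2 to week 104 while spleen rises.

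The share of miR-221 reads on the 5p passenger arm was 12.3% ± 6.51 (SD, n = 318) over all libraries, while for miR-222 the 5p arm had 0.408%. Heart had the lowest mean share for miR-221, at 7.78%, and brain the highest, at 16.7%. In brain the share was 18.3% to 41.6% at week 2, 8.42% to 14.3% at week 6, 10.2% to 28.8% at week 21 and 9.14% to 17.8% at week 104. The means were 24.9%, 10.2%, 16.9% and 13.9%. Week 104 lay below week 2 without overlap, by 11.0 percentage points (exact permutation test, adjusted p = 0.0017, n = 8 and 8), and the difference was 11.1 points with lane effects removed, where the ages overlapped. In the other 10 organs the change did not pass. With lane removed, lung at -3.77 points and thymus at -6.24 points passed too (exact permutation tests, adjusted p = 0.026 each). Lane took 22.7% of the variance of this share within groups, with 9.27 points between the highest and lowest lanes. In liver at week 6 the share reached 58.8%, in a library with only 7 counts of miR-221-3p.

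**Figure D4:**
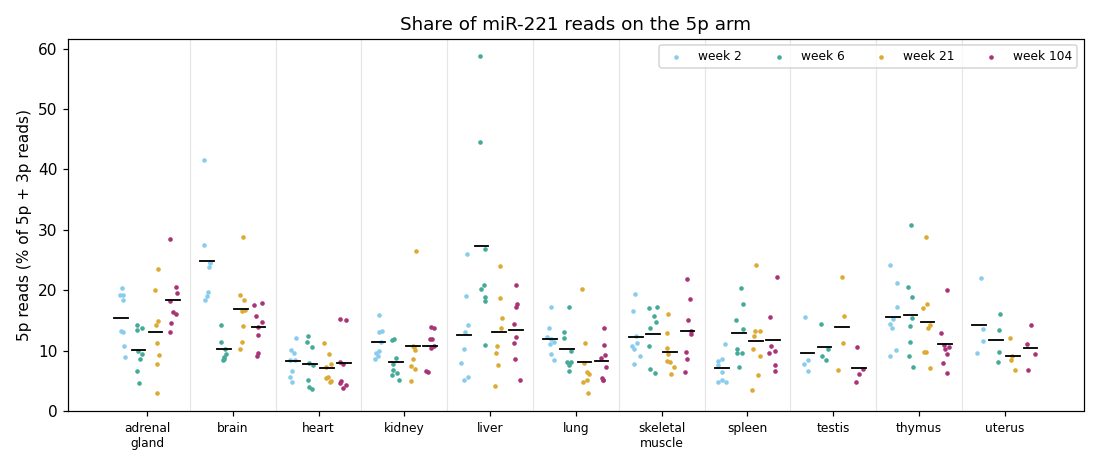
Share of miR-221 reads that lie on the 5p arm, as a percentage of 5p and 3p reads, by organ and age. Points are libraries and black bars are means. All brain libraries of week 2 lie above those of weeks 6 and 104, and the highest points of the plot are shallow liver libraries of week 6.

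The sexes were compared in the 9 organs that both have, as the mean over ages and at each age, 45 contrasts in all. Only liver gave calls for the pair: miR-221-3p and miR-221-5p were each called in 2 contrasts and miR-222-3p in 0 (6 and 1 contrasts of the 3p strands had an unadjusted p under 0.05, and DESeq2 called 4 and 0), beside 1.18% of all tests. Averaged over ages, miR-221-3p was lower in female than in male liver by a log2 difference of -0.88 ± 0.152 (SE, adjusted p = 0.00048, edgeR) with TMM and -0.83 with library size. miR-221-5p differed by -0.93 ± 0.224 (SE, adjusted p = 0.017, edgeR) with TMM and -0.89 with library size. For miR-222-3p the difference was -0.30 ± 0.191 (SE, adjusted p = 0.69, edgeR). In this contrast 4 of 616 miRNAs (0.649%) were called lower in females and 0 higher. The other 2, named after their values were seen, were miR-182 at -1.23 and miR-183-5p at -0.76, which are themselves neighbours in 1 cluster.

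The libraries of liver show the size of the difference by age. At week 21, female livers held 37.4, 37.6, 46.2 and 38.1 CPM of miR-221-3p and male livers 67.0, 103.3, 79.5 and 98.2 CPM. All females lay below all males, as held for 1.95% of miRNAs, and the log2 difference was -1.31 ± 0.307 (SE, adjusted p = 0.011, edgeR), beside 1.46% of all miRNAs called lower in females. At week 6, females held 22.2, 67.0, 42.2 and 73.5 CPM and males 101.0, 177.1, 135.3 and 84.1 CPM, again without overlap, beside 1.14% of miRNAs. That difference of -1.26 had an adjusted p of 0.16 (edgeR). At week 2 the means were 53.2 and 91.3 CPM with overlap, and at week 104 they were 56.9 and 65.7 CPM with a log2 difference of -0.16. For miR-221-5p at week 21, females held 1.63, 3.07, 4.90 and 6.06 CPM and males 21.2, 18.9, 18.3 and 11.9 CPM, a log2 difference of -2.28 (adjusted p = 0.0030, edgeR). The sexes did not overlap for miR-221-5p at week 104 either, beside 2.60% of miRNAs. The interaction of sex with week 21 against week 2 gave 0 calls by edgeR for either arm, with adjusted p = 0.81 for miR-221-3p and 0.070 for miR-221-5p, beside 0.667% of all tests. For miR-221-5p, DESeq2 called 1 interaction, and 1 of 9 organs had an unadjusted p under 0.05 with edgeR for each arm. For miR-221-5p the estimate largest beside its SE was in liver, at -2.49 ± 0.642 (SE). For miR-221-3p it was in lung, at -0.57 ± 0.218 (SE, adjusted p = 0.27, edgeR), and liver was at -0.52 ± 0.425 (SE).

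**Figure D5:**
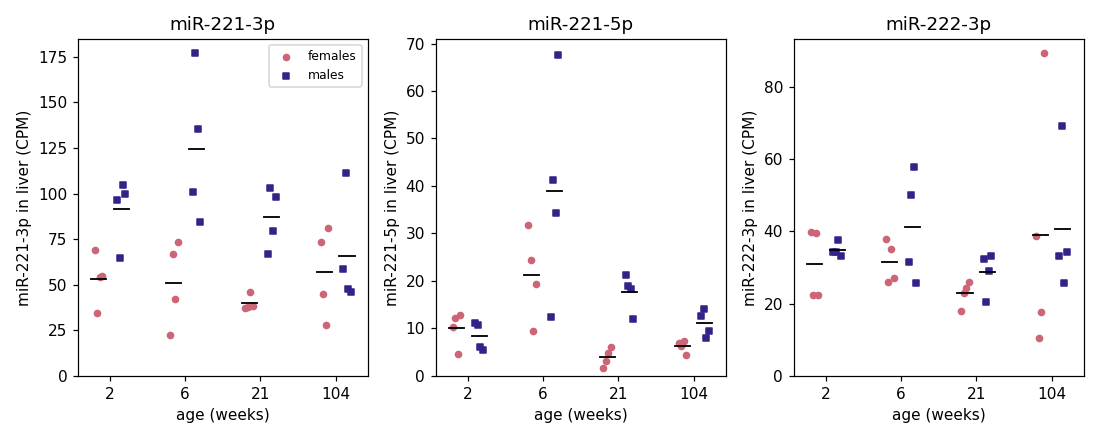
Level of miR-221-3p, miR-221-5p and miR-222-3p in liver (CPM) by age in weeks, with females as circles, males as squares and means as black bars. Females lie below males without overlap at weeks 6 and 21 for miR-221-3p and at weeks 21 and 104 for miR-221-5p, while the sexes overlap at all ages for miR-222-3p.

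Depth limits these liver values, since the female libraries held 7 to 106 counts of miR-221-3p and the male libraries 37 to 136. The female library with 7 counts at week 6 was at 22.2 CPM, with an exact 95% interval of 8.92 to 45.7 CPM that covers counting error only. The week 21 call of miR-221-3p was lost with library size (adjusted p = 0.094, edgeR) and with lane in the fit (adjusted p = 0.051), while the mean over ages was called with library size as well. It was also lost without replicate 1 (adjusted p = 0.056, edgeR) or replicate 4 (adjusted p = 0.11, edgeR). The call of miR-221-5p over all ages was lost without replicate 2, 3 or 4, with an adjusted p of up to 0.17 (edgeR), and that at week 21 without replicate 1 (adjusted p = 0.053, edgeR). Red blood cell miRNAs at week 21 summed to 3745 to 4926 CPM in females and 5470 to 13188 CPM in males, without overlap. White blood cell sums were 3628 to 5215 CPM and 2355 to 3848 CPM, and endothelial sums were 16108 to 29631 CPM and 11981 to 24567 CPM. Smooth muscle, mesenchymal and miR-17 to miR-92a cluster sums of the sexes also overlapped at week 21. Red blood cell sums overlapped at the other ages. They were 6953 to 10113 CPM in females and 6951 to 14770 CPM in males at week 6. At week 104 their medians were 10687 CPM in females and 7635 CPM in males. The part of blood in the sex difference was not tested.

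Over the 44 combinations of organ and age, the mean log2(CPM + 1) of miR-221-3p and miR-222-3p had a Pearson r of 0.968, given as a description since combinations share libraries and organs. The miRNAs most like miR-221-3p were miR-330-5p (r = 0.822), miR-330-3p (0.788), miR-328a-3p (0.786), miR-324-5p (0.773) and miR-146b-5p (0.772). For miR-222-3p they were miR-330-5p (0.863), miR-330-3p (0.830), miR-324-5p (0.820), miR-328a-3p (0.819) and miR-99b-3p (0.814). Each of these correlations lay well under that between the members themselves.

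Within an organ, libraries with more miR-221-3p than their group also tended to have more miR-222-3p. After the mean of each group of sex and age was removed, Pearson's r of log2(CPM + 1) was positive in 11 of 11 organs and passed an adjusted p of 0.05 in 6 (permutation test, 11 organs tested). By Spearman's rho 4 passed (adrenal gland, skeletal muscle, testis and uterus), and lung and thymus did not (permutation tests, adjusted p = 0.066 each). It was 0.89 in testis (n = 16, permutation p = 0.0053, adjusted p = 0.014) with Spearman's rho of 0.83 (p = 0.0020), and 0.71 in thymus (n = 32, permutation p = 0.0050, adjusted p = 0.014) with rho of 0.40 (p = 0.054). Without the 2 libraries farthest from the median, r was 0.74 and 0.41. With lane effects removed, 10 organs passed and r in brain went from 0.30 to 0.62. With TMM-scaled CPM only thymus passed, at 0.64.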

How the data were processed

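Small RNA libraries were read from 11 organs of rats of 4 ages and both sexes. The values are raw counts per mature miRNA, deposited by the authors in 1 table with no normalization. The submitters' processing notes name fastp 0.23.2 and Bowtie 1.3.1. Groups came from the sample labels, and sequencing lane from the study's sample table. The organs of a sex and age came from the same 4 rats per the study's methods, but the labels do not tie samples to a rat, so the organ contrasts and the fit over all organs treated samples of different organs as independent, and their p-values may be misjudged for that reason. Organs were compared at each age and ages within each organ with edgeR 4.0.16 (quasi-likelihood test, TMM) across all 616 miRNAs in R 4.3.3, with limma 3.58.1. A call needed a Benjamini-Hochberg adjusted p under 0.05 and over 1.5-fold. The alternatives were library size scaling, DESeq2 1.42.0, a mean count of at least 10, all 320 libraries, lane or sex as covariates, a replicate block, and leaving out each replicate. Ratios and arm shares were compared by exact permutation tests in SciPy 1.17.1, and correlations with 100000 permutations. Samples with the same replicate number did not deviate together from their group means, which does not show whether they share a rat. The scripts were tested on simulated data. The named members and the lists of cell type miRNAs were chosen with earlier results of these data known. Named genes were the members, the fixed lists, the organ markers and the 5 miRNAs with the most similar pattern. miR-182 and miR-183-5p were named after their values were seen.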

Additional observations from a re-analysis of the deposited data

Results flagged for a closer look

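The 44 groups of organ and age, of 4 to 8 libraries, were each tested for miR-221-3p, miR-222-3p and their ratio. These 132 tests share counts. In 9 of them 1 library lay far from the rest, measured as its gap to the nearest library over the range of the group. Chance marks about 1 in 20 tests, here 6.6. For miR-221-3p the gap was 0.607 of the range for replicate 3 of the male heart samples at week 104 (495.0 CPM, nearest 332.7), 0.553 for replicate 2 of the female kidney samples at week 2 (387.1, nearest 264.1), 0.555 for replicate 2 of the male lung samples at week 21 (842.6, nearest 691.9) and 0.647 for female spleen replicate 1 at week 21 (699.7, nearest 430.7). For miR-222-3p it was 0.535 for replicate 2 of the female adrenal gland samples at week 104 (258.7 CPM, nearest 184.6) and 0.725 for replicate 3 of the male skeletal muscle samples at week 21 (31.8, nearest 18.0). For the log2 ratio it was 0.840 for replicate 1 of the male adrenal gland samples at week 21 (-1.72, nearest -0.24), 0.623 for male brain replicate 4 at week 2 (0.86, nearest 0.34) and 0.547 for replicate 1 of the male heart samples at week 21 (-0.74, nearest -1.08).

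The change from week 2 to week 104 differed between an organ and the mean of the other 10 in these cases with TMM. For miR-221-3p the difference in log2 fold change was -0.69 in kidney, -0.85 in liver, 0.59 in skeletal muscle, -1.34 in spleen, 0.89 in testis and 0.84 in thymus. For miR-221-5p it was 1.00 in skeletal muscle, and for miR-222-3p it was -0.67 in kidney and -0.69 in uterus. With library size the sign turned for miR-221-3p in skeletal muscle, at -0.21, and in testis, at -0.30. The spleen value rests on the week 2 samples with the lowest RNA integrity.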

How the results depend on the processing

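At a 4-fold threshold the organ contrasts called fell to 51 for miR-221-3p, 74 for miR-222-3p and 48 for miR-221-5p. For week 104 against week 2, library size gave 3, 3 and 1 organs for miR-221-3p, miR-222-3p and miR-221-5p, a 2-fold threshold 3, 1 and 2, and lane as a covariate 0 for miR-221-5p; leaving out a replicate gave 3 to 6 for miR-222-3p. For neighbouring ages, miR-221-3p had 3 calls with library size, 12 with no fold threshold and 2 at 2-fold. miR-222-3p had 9 and 1 at those thresholds and 1 to 4 without a replicate. miR-221-5p had 3 with lane, 2 at 2-fold and 3 to 6 without a replicate. For sex, miR-221-3p had 4 calls with DESeq2, 1 with lane, 1 with library size, 1 at 2-fold and 1 to 2 without a replicate; miR-221-5p had 1 at 2-fold and 1 whichever replicate was left out. The sex by age contrast of miR-221-5p had 1 call with DESeq2 and 1 with a mean count of at least 10.

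With library size the change from week 2 to week 104 reversed for miR-221-3p in adrenal gland (-0.28), liver (-0.18) and testis (-0.067), and for miR-222-3p in adrenal gland (-0.28), skeletal muscle (-0.27), spleen (-0.13), testis (-0.96) and uterus (-0.94). DESeq2 gave -0.092 for miR-221-3p in liver and -0.027 for miR-222-3p in uterus, and lane as a covariate 0.042 for miR-221-3p in kidney. Without a replicate, miR-221-3p ranged from -0.12 to 0.090 in kidney and from -0.18 to 0.22 in liver, and miR-222-3p from -0.065 to 0.30 in uterus. Library size against the other organs gave 3 organs for miR-221-3p and 2 for miR-221-5p. The cause of these changes was not tested.

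For the ratio, 0 to 1 organs passed without a replicate at week 104 and at week 6. The arm share passed in 3 organs with lane effects removed. Covariation passed in 10 organs with lane effects removed, in 1 with TMM-scaled CPM, where adrenal gland was at -0.027, and in 0 to 5 without a replicate. Of the 5 nearest miRNAs, Spearman's rho kept 2 for miR-221-3p and 1 for miR-222-3p, and log2(CPM + 10) kept 3 for miR-222-3p. Samples with the same replicate number did not deviate together from their group means (mean correlation 0.0083 for organs). With the replicate block the organ contrasts called were 162, 163 and 142. All 35 results tested with the block kept their direction and side of the threshold.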
